A study of Rattus norvegicus with 48 samples.

Results

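The 6 mature miRNAs that are the arms of the hairpins of miR-122, miR-192 and miR-194 were followed in rat liver during treatment with thioacetamide (TAA), a hepatotoxic liver carcinogen. They were chosen by name, as every mature miRNA whose name begins with rno-miR-122-, rno-miR-192- or rno-miR-194-, and the rule caught 6 of 764 mature miRNAs listed: rno-miR-122-5p, rno-miR-122-3p, rno-miR-192-5p, rno-miR-192-3p, rno-miR-194-5p and rno-miR-194-3p. All 6 were among the 301 miRNAs that reached 5 RPM (reads per 1000000 miRNA reads) in at least 3 libraries and were tested. Male Sprague-Dawley rats received TAA once daily at 4.5 mg/kg (low dose), 15 mg/kg (middle dose) or 45 mg/kg (high dose), or vehicle alone (control), over 3, 7, 14 or 28 days, written as 3-d and so on up to 28-d. Each of the 16 groups held 3 rats and 1 small RNA library per rat, 48 libraries in all, made from total RNA of whole liver with the Illumina TruSeq small RNA kit. The livers were taken a day after the last dose. The vehicle and the ages of the rats are not given in the sources used here.

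A miRNA is cut from a hairpin precursor by Drosha and Dicer, and 1 strand of the resulting duplex, usually the same arm in a given tissue, is loaded into an Argonaute protein, where bases 2 to 8 (the seed) direct it to target mRNAs, while the other arm is mostly degraded. miR-122 is the classical hepatocyte miRNA, involved in lipid metabolism and in keeping the differentiated state of the hepatocyte. miR-192 and miR-194 are transcribed together as a cluster and are found in liver, intestine and kidney. In whole liver, fewer cells of a type and less RNA per cell cannot be told apart.

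The mature sequences are shown because both arms of each hairpin are compared in what follows and because the seed decides which miRNAs can be read as a family. All 6 had an entry in RefSeq (GRCr8 build), from which the sequences below were taken, 5′ to 3′, with the seed in capitals.
rno-miR-122-5p: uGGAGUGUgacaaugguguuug
rno-miR-122-3p: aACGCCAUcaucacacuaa
rno-miR-192-5p: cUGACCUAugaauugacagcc
rno-miR-192-3p: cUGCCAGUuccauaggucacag
rno-miR-194-5p: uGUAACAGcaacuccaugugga
rno-miR-194-3p: cCAGUGGGgcugcuguuaucu
rno-miR-215: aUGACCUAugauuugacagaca
No 2 of the 6 share a seed. rno-miR-192-5p has the seed of rno-miR-215, which is shown for that reason and was not analysed here, as no reads were counted under that name. In RefSeq on GRCr8, which is not the rn5 build named in the submitters' processing notes, the hairpin of miR-122 lies on the plus strand at chr18:61028817-61028901. The hairpin of miR-192 lies at chr1:212994209-212994318 on the plus strand, and 100 bases separate it from the second hairpin of miR-194 at chr1:212994024-212994108. The first hairpin of miR-194, at chr13:99382716-99382798, is 191 bases from the hairpin of miR-215. Both miR-194 hairpins give the same 5p sequence, so reads of rno-miR-194-5p cannot be assigned to one of them, whereas rno-miR-194-3p was listed for the chromosome 1 hairpin alone. The authors' table listed rno-miR-194-5p separately for the 2 precursors, with a ratio of reads between them of 0.864 to 0.934 (median 0.916) over the 48 libraries, and the precursor with more reads was used.

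Libraries held 293331 to 14906217 miRNA reads (median 10237542). Replicate 1 of the 3-d controls was the one with 293331, and the next lowest had 4829217. That library stood apart in its members too. rno-miR-192-5p made up 9.60% of its reads against 17.3% to 25.9% in the other 47 libraries, and the 3 red blood cell markers rno-miR-451-5p, rno-miR-144-3p and rno-miR-486 summed to 98039 RPM in it against 859 to 8757 RPM in the others. The log2 fold changes at 3-d are therefore given with and without it. The labels number the libraries 1 to 48, and the low-dose libraries carry the numbers 28 to 30 (28-d) and 40 to 48 (14-d, 3-d and 7-d). The labels do not say what the numbers mark, so dose and any order of handling behind the numbers cannot be told apart.

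The 6 miRNAs differed widely in abundance. The order rno-miR-192-5p, rno-miR-122-5p, rno-miR-194-5p, rno-miR-122-3p, followed by the 3p arms of miR-192 and miR-194, held in 48 of 48 libraries. rno-miR-192-5p, the guide arm of miR-192, was the most abundant miRNA in 39 of 48 libraries, with a median share of 20.9% of all miRNA reads. It ranked first in 6 of 12 control and 33 of 36 TAA libraries. rno-miR-122-5p ranked between 3 and 10 in every library (median rank 8, median share 3.49%). rno-miR-194-5p had a median share of 0.731% (median rank 20). Of the passenger arms, rno-miR-122-3p held a median of 0.135%, rno-miR-192-3p 0.00518% and rno-miR-194-3p 0.00320% of the reads. rno-miR-192-3p exceeded rno-miR-194-3p in 40 of 48 libraries. Together the 6 took 22.3% to 31.9% of the reads of the 47 deeper libraries and 12.6% of those of the 3-d control replicate 1. The mature forms are of near-equal length, so shares were compared without scaling by length; how efficiently each sequence was ligated and amplified is not known, and the order between miRNAs carries that limit.

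**Figure D1:**
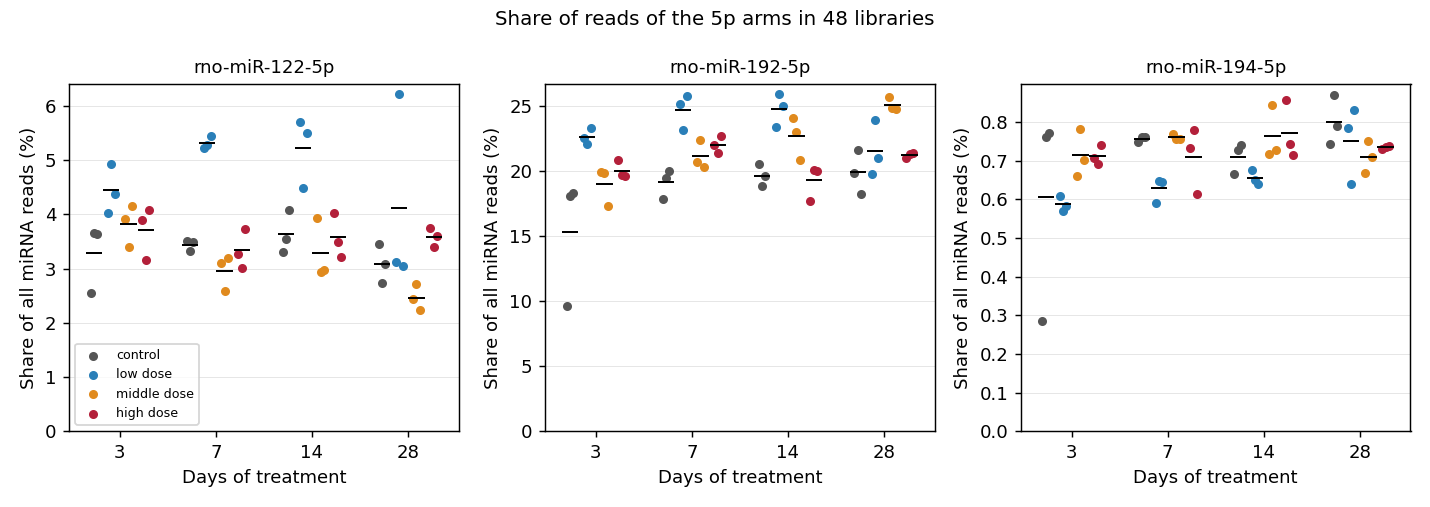
Share of all miRNA reads (%) of rno-miR-122-5p, rno-miR-192-5p and rno-miR-194-5p in each of the 48 libraries, by days of treatment and dose; points are single rats and black bars are group means. The low-dose points of rno-miR-122-5p sit at 4.02% to 5.70% up to 14-d, and 1 of the 3 low-dose rats at 28-d reaches 6.21%.

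Treated rats were compared with the controls of the same day by the quasi-likelihood F-test of edgeR, and a miRNA was called differentially expressed (DEM) at an unadjusted p below 0.05 and a fold change above 1.5. The p adjusted over the 301 miRNAs is given beside it. Over the 12 treatment conditions, 10 of the 72 tests on the 6 miRNAs called a DEM (13.9%), beside 18.1% of the tests on all miRNAs. At 3-d none of the 6 was a DEM at any dose, where, by rising dose, 16.6%, 2.99% and 11.3% of the 301 were; without control replicate 1, rno-miR-194-3p was one at low dose. At 7-d the low dose gave 2 DEMs among the 6 (background 28.9%), and the middle dose (background 15.9%) and the high dose (background 21.3%) gave none. At 14-d the low dose gave 3 (background 32.6%), the middle dose 1 (background 17.3%) and the high dose 1 (background 9.3%). At 28-d the low dose gave 1 (background 12.3%), the middle dose 2 (background 32.9%) and the high dose none (background 15.3%). The counts among 6 miRNAs lay on both sides of the background. For differences between doses, described with each miRNA, 15 of 72 tests on the 6 were called (20.8%), beside 10.9% of those on all miRNAs. Groups of 3 rats that did not overlap were common too: over the 12 conditions, 7.97% to 53.2% of the 301 miRNAs had treated levels all above or all below the controls. By rising dose these shares were 39.5%, 7.97% and 21.9% at 3-d and 53.2%, 46.2% and 35.2% at 7-d. They were 50.2%, 41.5% and 24.6% at 14-d and 23.3%, 48.5% and 33.9% at 28-d.

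rno-miR-122-5p, the arm that carries the known functions of miR-122, was upregulated at low dose on 7-d and 14-d and downregulated at middle dose on 28-d. At 3-d the share was 3.28% ± 0.640 in the controls and 4.44% ± 0.454, 3.82% ± 0.387 and 3.71% ± 0.489 from the lowest to the highest dose (SD, n = 3). The 7-d controls had 3.44% ± 0.0955, and the treated groups 5.31% ± 0.112, 2.96% ± 0.323 and 3.34% ± 0.363 by rising dose. At 3-d and 7-d the low dose was the highest group. At 14-d the share was 3.64% ± 0.396 in the controls against 5.23% ± 0.648, 3.29% ± 0.563 and 3.58% ± 0.413 by rising dose. The corresponding values at 28-d were 3.09% ± 0.359, 4.13% ± 1.81, 2.46% ± 0.238 and 3.58% ± 0.174. The highest group means over the 16 groups were those of the low dose, in the order 7-d, 14-d, 3-d, 28-d, and the lowest was that of middle dose at 28-d, but the ranges of all 15 pairs of neighbours in this order overlapped.

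At 7-d the 3 low-dose rats had 5.22%, 5.29% and 5.44% of reads from rno-miR-122-5p, against 3.50%, 3.33% and 3.49% in the controls. Every low-dose rat was above every control (log2 fold change 0.75, SE 0.0793, adjusted p = 2.33e-04, 1.68-fold). At 14-d the low-dose rats had 5.70%, 4.49% and 5.50% against 3.30%, 3.54% and 4.07%, again without overlap (log2 fold change 0.67, SE 0.142, adjusted p = 0.00372, 1.60-fold). This second fold lay just above 1.5. It fell to a log2 fold change of 0.52 with TMM normalization or library size alone and 0.55 with the size factors of DESeq2, to 0.52 with summed precursors and 0.44 with no filter on low counts, and to 0.58 without low-dose replicate 40, all below the fold limit of 0.585 and with the direction kept. At middle dose on 28-d the shares were 2.45%, 2.71% and 2.23% against 3.45%, 2.74% and 3.08%, every treated rat below every control (log2 fold change -0.61, SE 0.163, adjusted p = 0.0164). With library size alone the log2 fold change was -0.33 (adjusted p = 0.0654) and with library size without the 6 members -0.24 (adjusted p = 0.154), neither past the limit, and without control replicate 16 or middle-dose replicate 39 it was -0.49 and -0.50, below the fold limit. A smaller decrease at middle dose on 7-d, from 3.50%, 3.33% and 3.49% to 3.10%, 2.59% and 3.19%, had an adjusted p below 0.05 but a fold under 1.5 (log2 fold change -0.32, SE 0.0835, adjusted p = 0.0207). At 3-d the low dose stood at a log2 fold change of 0.65 (adjusted p = 0.264), and without control replicate 1 at 0.45 (adjusted p = 0.0259), while without control replicate 2 it was a DEM (0.82). The middle and high dose stood at 0.25 and 0.31, and without control replicate 1 at 0.04 and 0.10. The 3 low-dose rats of 28-d differed widely, with 3.11%, 6.21% and 3.05%: replicate 29 resembled the low-dose rats of the earlier days, and the other two resembled the controls (log2 fold change 0.28, SE 0.362, adjusted p = 0.729).

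The highest level of rno-miR-122-5p was not at the highest dose. In a fit of all 48 libraries the low dose was compared with the other doses directly, with p adjusted over the 301 miRNAs within each comparison. At 7-d rno-miR-122-5p was lower at middle than at low dose, with a log2 difference of -1.07 (SE 0.242, adjusted p = 0.00167), where 28.9% of miRNAs differed, and at high than at low dose, with -0.85 (SE 0.241, adjusted p = 0.0282), where 8.64% did. At 14-d the differences were -0.98 (SE 0.241, adjusted p = 0.00378, background 23.3%) for middle against low dose and -0.92 (SE 0.241, adjusted p = 0.00629, background 19.3%) for high against low dose. The low dose was thus above both higher doses on both days. At 28-d middle was below low dose, with -0.89 (SE 0.241, adjusted p = 0.0270, background 4.32%), but without low-dose replicate 29 this difference was -0.30, with an adjusted p of 0.619, and without middle-dose replicate 37, 38 or 39 the adjusted p was 0.0569 to 0.190. High dose was above middle dose at 28-d by 0.75 (SE 0.240, adjusted p = 0.0394, background 10.6%), a call lost when any of the 6 libraries of these groups was left out. The call of high against low dose at 7-d was lost when 1 of 5 libraries was left out (adjusted p up to 0.151), while both calls at 14-d and that of middle against low dose at 7-d held without any 1 of the 48. With no filter on low counts, high against low dose at 14-d (-0.66, adjusted p = 0.116) was not called. Nor was high against middle dose at 28-d (0.72, adjusted p = 0.0741). No dose difference of rno-miR-122-5p was called at 3-d, between high and middle dose at 7-d or 14-d, or between high and low dose at 28-d.

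Marker sums of other liver cells moved in the same low-dose groups, but not all in one direction. The 5 leukocyte markers summed to 1839 to 2563 RPM at low dose on 7-d against 3111 to 3720 RPM in the controls, and to 2105 to 2458 RPM against 3167 to 3861 RPM on 14-d. The 5 bile duct and epithelium markers summed to 355 to 484 RPM against 1059 to 1072 RPM on 7-d and to 402 to 611 RPM against 630 to 938 RPM on 14-d. Both sums were lower at low dose, and so were those of the 2 endothelial markers (17441 to 20150 against 21531 to 24112 RPM on 14-d). With upper quartile normalization the bile duct sums on 14-d (451 to 747 against 708 to 1014) and the endothelial sums on 7-d overlapped. Stellate cell and smooth muscle sums were 43933 to 45891 against 42423 to 46697 RPM on 7-d. On 14-d they were higher, at 42836 to 47069 against 39714 to 42470 RPM. The sum is weighted to rno-miR-143-3p, with a mean share of 3.97% of reads outside the library of low depth. With upper quartile normalization the median log2 fold change of the 5 on 14-d was -0.15, beside 0.11 over all 301. Their values ran from -0.92 (rno-miR-145-5p) to 0.28 (rno-miR-143-3p). Red blood cell sums overlapped the controls on both days. At low dose on 7-d 28.9% of the 301 miRNAs were DEMs. Of the leukocyte markers 2 of 5 were downregulated and 1 upregulated, and 2 of 5 bile duct markers were downregulated. On 14-d, with a background of 32.6%, 2 of 5 leukocyte markers were downregulated. Of the bile duct markers 1 was then downregulated and 2 upregulated. On each day 1 of 5 stellate cell and smooth muscle markers and 1 of 3 red blood cell markers were downregulated. The part of these markers in the rise of rno-miR-122-5p was not tested. Among the markers, rno-miR-155-5p alone had a library at 0 reads.

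rno-miR-122-3p, the passenger arm of the same hairpin, was downregulated in 5 conditions, all at 14-d or 28-d, and upregulated in none. At 3-d the share was 0.138% ± 0.0183 in the controls and 0.112% ± 0.0118, 0.170% ± 0.0266 and 0.195% ± 0.00148 from the lowest to the highest dose (SD, n = 3). The 7-d controls had 0.146% ± 0.0147, and the treated groups 0.114% ± 0.0161, 0.130% ± 0.0154 and 0.119% ± 0.00898 by rising dose. At 3-d the high dose was the highest group, and at 7-d the controls were. At 14-d the share was 0.230% ± 0.0332 in the controls against 0.125% ± 0.00669, 0.133% ± 0.00976 and 0.167% ± 0.0210 by rising dose. The corresponding values at 28-d were 0.222% ± 0.0478, 0.125% ± 0.00471, 0.112% ± 0.0245 and 0.183% ± 0.0200. The controls of 14-d and 28-d held the highest means of all 16 groups, and the ranges of all 15 pairs of neighbours in the order overlapped.

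At 14-d the controls had 0.197%, 0.229% and 0.264% of their reads from rno-miR-122-3p. The low-dose rats had 0.133%, 0.121% and 0.121% (log2 fold change -0.73, SE 0.150, adjusted p = 0.00360), the middle-dose rats 0.143%, 0.124% and 0.130% (log2 fold change -0.96, SE 0.152, adjusted p = 0.00156) and the high-dose rats 0.189%, 0.166% and 0.147% (log2 fold change -0.68, SE 0.150, adjusted p = 0.0622). All 9 treated rats were below all 3 controls. At high dose the adjusted p missed 0.05, and the log2 fold change was -0.53 without control replicate 15 and -0.46 with library size alone, both under the fold limit. At 28-d the controls had 0.167%, 0.247% and 0.252%, against 0.130%, 0.121% and 0.124% at low dose (log2 fold change -1.01, SE 0.222, adjusted p = 0.0942) and 0.0848%, 0.133% and 0.118% at middle dose (log2 fold change -1.27, SE 0.211, adjusted p = 0.00130). Again neither dose overlapped the controls, and the adjusted p at low dose missed 0.05. High dose at 28-d was not a DEM (log2 fold change -0.34, SE 0.170, adjusted p = 0.224). At 7-d all 3 doses had a log2 fold change between -0.36 and -0.25 with adjusted p of 0.0709 to 0.160. At 3-d the log2 fold changes were -0.08, 0.33 and 0.63 for the 3 rising doses, and -0.21, 0.20 and 0.49 without control replicate 1; none was a DEM.

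The controls themselves changed with time. rno-miR-122-3p was higher in the 14-d than in the 3-d controls by a log2 difference of 0.96 (SE 0.176, adjusted p = 3.39e-04), where 20.9% of miRNAs differed, and in the 28-d than in the 3-d controls by 0.97 (SE 0.176, adjusted p = 2.62e-04), where 39.5% did. Against the 7-d controls, which do not include the library of low depth, it was higher by 0.80 (SE 0.175, adjusted p = 0.0152, background 0.664%) at 14-d and by 0.81 (SE 0.175, adjusted p = 0.00367, background 5.98%) at 28-d. Without 3-d control replicate 1 the first pair stood at 0.83 (adjusted p = 0.0101) and 0.84 (adjusted p = 0.00192). The call between 14-d and 7-d was lost without control replicate 5 or 15 (adjusted p 0.0987 and 0.121). When all 12 controls served as the reference for every condition, rno-miR-122-3p was a DEM in 5 conditions too, but they were low dose at 3-d, all 3 doses at 7-d and middle dose at 28-d; of the 5 conditions above only the last was among them. These 5 were decreases with adjusted p of 0.0691 to 0.216. In 1 fit of all 48 libraries the 5 conditions of 14-d and 28-d were called, and so was an increase at high dose on 3-d (0.62, adjusted p = 0.00670). The conditions called for this miRNA therefore depended on the controls and the fit used.

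Between doses, rno-miR-122-3p was higher at high than at low dose at 3-d by 0.70 (SE 0.175, adjusted p = 0.00835, background 13.6%) and at 28-d by 0.67 (SE 0.175, adjusted p = 0.0239, background 2.66%), and at high than at middle dose at 28-d by 0.92 (SE 0.176, adjusted p = 0.00190, background 10.6%). The 28-d difference of high and low dose was not called with TMM normalization (0.46, adjusted p = 0.129) or library size alone (0.55, adjusted p = 0.0668), or when 1 of 4 libraries was left out (adjusted p up to 0.122).

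**Figure D2:**
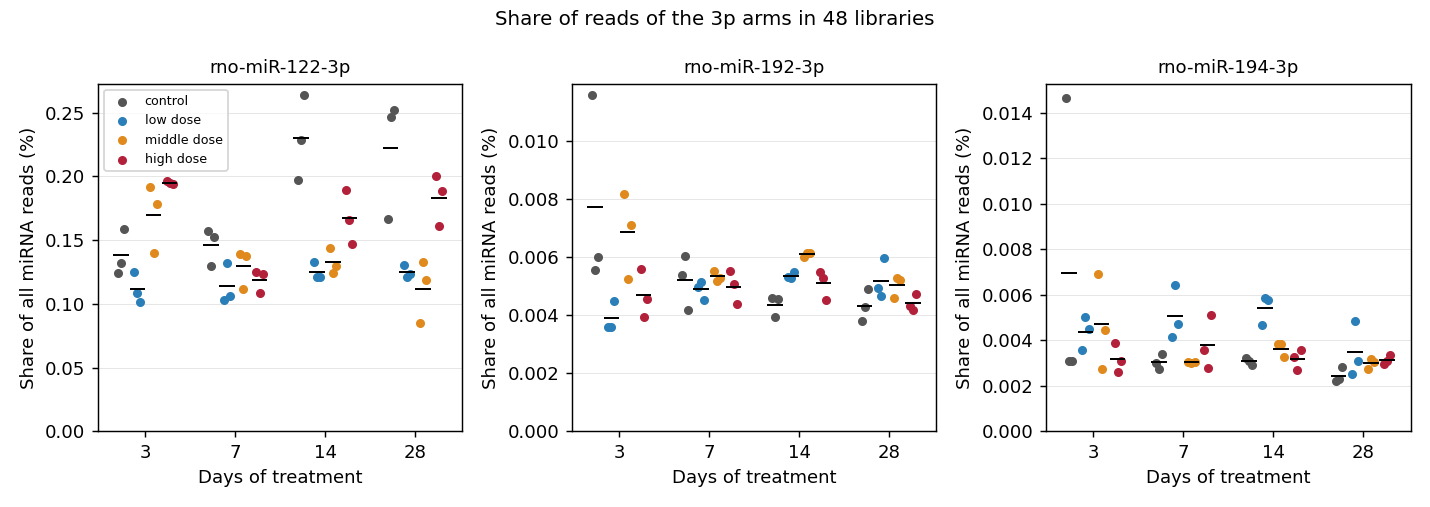
Share of all miRNA reads (%) of rno-miR-122-3p, rno-miR-192-3p and rno-miR-194-3p in each of the 48 libraries, by days of treatment and dose; points are single rats and black bars are group means. In rno-miR-122-3p the controls rise from 0.138% at 3-d to 0.222% at 28-d, and in rno-miR-192-3p and rno-miR-194-3p the single high control point at 3-d is the library of 293331 reads.

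rno-miR-192-5p, the guide arm of miR-192 and the most abundant miRNA in 39 of 48 libraries, was a DEM in none of the 12 conditions. At 3-d the share was 15.3% ± 4.95 in the controls and 22.6% ± 0.646, 19.01% ± 1.47 and 20.01% ± 0.668 from the lowest to the highest dose (SD, n = 3). The 7-d controls had 19.1% ± 1.11, and the treated groups 24.7% ± 1.35, 21.1% ± 1.07 and 21.98% ± 0.655 by rising dose. The low dose was highest on both days. At 14-d the share was 19.6% ± 0.832 in the controls against 24.8% ± 1.27, 22.6% ± 1.64 and 19.3% ± 1.36 by rising dose. The corresponding values at 28-d were 19.9% ± 1.68, 21.5% ± 2.12, 25.1% ± 0.488 and 21.2% ± 0.189. The highest group mean was that of middle dose at 28-d and the lowest that of the 3-d controls, and the ranges of all 15 neighbouring pairs overlapped. At low dose the rats had 25.1%, 23.1% and 25.7% on 7-d against 17.9%, 19.5% and 20.004% in the controls (log2 fold change 0.49, SE 0.0958, adjusted p = 0.00429, 1.40-fold), and 23.4%, 25.9% and 25.01% on 14-d against 20.5%, 18.8% and 19.6% (log2 fold change 0.48, SE 0.0863, adjusted p = 0.00172, 1.39-fold). On neither day did the groups overlap, and both adjusted p were below 0.05 with folds under the limit. With all 12 controls as the reference the adjusted p at 7-d was 0.165, and with no filter on low counts the 14-d value was 0.25 (adjusted p = 0.304). At low dose on 3-d the log2 fold change was 0.77 (adjusted p = 0.275) with all libraries and 0.48 (adjusted p = 0.0119) without control replicate 1. The middle and high dose of 3-d stood at 0.31 and 0.49, and at 0.03 and 0.20 without it. For the low dose at 28-d it was -0.06 (adjusted p = 0.846).

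The share and the normalised level of rno-miR-192-5p gave different pictures. By share, every treated rat was above every control in 8 of the 12 conditions. By normalised level this was so in 3, and in 1 every treated rat was below. In normalised level 7.97% to 53.2% of the 301 miRNAs did not overlap, by condition. Among the conditions where the measures differed was middle dose on 28-d. The rats had 25.6%, 24.8% and 24.7% of their reads from it against 19.8%, 21.6% and 18.2% in the controls, without overlap. The upper quartile normalization, which sets the libraries by their moderately abundant miRNAs, gave a log2 fold change of 0.05 (adjusted p = 0.706), and library size alone gave 0.33. Between these scalings the median log2 fold change over all 301 miRNAs moved by 0.28 in that condition, the largest such shift; over the 12 conditions it ranged from -0.21 to 0.28. A level can thus rise as a share and not against the other miRNAs. Of the dose differences, rno-miR-192-5p was lower at middle than at low dose at 7-d, with -0.45 (SE 0.169, adjusted p = 0.0445) and at high than at low dose at 14-d, with -0.72 (SE 0.169, adjusted p = 0.00412). The first was not called with library size alone (-0.22, adjusted p = 0.177) or when 1 of 5 libraries was left out (adjusted p up to 0.159).

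rno-miR-192-3p, the passenger arm of miR-192, had 255 to 776 reads in the 47 deeper libraries and 34 in 3-d control replicate 1, and was a DEM in no condition. At 3-d the share was 0.00772% ± 0.00336 in the controls and 0.00389% ± 0.000519, 0.00686% ± 0.00148 and 0.00471% ± 0.000826 from the lowest to the highest dose (SD, n = 3). The 7-d controls had 0.00522% ± 0.000948, and the treated groups 0.00490% ± 0.000317, 0.00534% ± 0.000169 and 0.00498% ± 0.000575 by rising dose. At 3-d the library of low depth was the highest of all. At 14-d the share was 0.00437% ± 0.000379 in the controls against 0.00537% ± 0.0000978, 0.00611% ± 0.0000776 and 0.00511% ± 0.000505 by rising dose. The corresponding values at 28-d were 0.00433% ± 0.000541, 0.00519% ± 0.000688, 0.00503% ± 0.000389 and 0.00442% ± 0.000293. At 14-d the low-dose rats had 0.00533%, 0.00530% and 0.00548% against 0.00461%, 0.00393% and 0.00456% in the controls (log2 fold change 0.44, SE 0.175, adjusted p = 0.0623), which did not overlap but passed neither the fold limit nor the adjusted p. At 3-d the log2 fold changes were -0.68, -0.07 and -0.51 by rising dose with all libraries and -0.40, 0.21 and -0.23 without control replicate 1, the middle dose turning sign; none was a DEM. At 3-d it was higher at middle than at low dose by 0.61 (SE 0.185, adjusted p = 0.0267), where 11.6% of miRNAs differed, a call lost when 1 of 4 libraries was left out (adjusted p up to 0.158). With TMM normalization, the size factors of DESeq2 or library size alone, low dose at 3-d was a DEM, with log2 fold changes of -0.99, -1.04 and -0.94, the library of low depth included. Of the 15 neighbouring pairs in the order of group means, 14 overlapped; the exception was middle dose at 14-d above low dose at 14-d.

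rno-miR-194-5p, the guide arm of miR-194, was a DEM in none of the 12 conditions. At 3-d the share was 0.606% ± 0.277 in the controls and 0.587% ± 0.0193, 0.715% ± 0.0611 and 0.713% ± 0.0246 from the lowest to the highest dose (SD, n = 3). The 7-d controls had 0.756% ± 0.00764, and the treated groups 0.628% ± 0.0320, 0.760% ± 0.00723 and 0.708% ± 0.0852 by rising dose. The low dose was the lowest treated group on both days. At 14-d the share was 0.711% ± 0.0399 in the controls against 0.655% ± 0.0179, 0.763% ± 0.0711 and 0.771% ± 0.0756 by rising dose. The corresponding values at 28-d were 0.800% ± 0.0646, 0.751% ± 0.0999, 0.709% ± 0.0402 and 0.735% ± 0.00430. The log2 fold changes at 3-d turned sign with 1 library: they were 0.16, 0.24 and 0.34 by rising dose with all libraries and -0.21, -0.13 and -0.03 without control replicate 1. From 7-d on they lay between -0.45 and 0.03. The one adjusted p below 0.05 was at middle dose on 28-d, where the rats had 0.669%, 0.750% and 0.708% against 0.742%, 0.870% and 0.789% in the controls (log2 fold change -0.45, SE 0.139, adjusted p = 0.0289). The shares of these groups overlapped, and with library size alone the log2 fold change was -0.17 (adjusted p = 0.329). None of its 12 dose differences was called, in comparisons where 0.332% to 28.9% of all miRNAs differed. Between high and middle dose none of the 6 was called at the first 3 time points, where the background was 0.332%, 2.66% and 5.32%.

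rno-miR-194-3p, the passenger arm listed for the chromosome 1 hairpin that neighbours miR-192, was upregulated at low dose on 7-d and 14-d, as rno-miR-122-5p was. At 3-d the share was 0.00694% ± 0.00668 in the controls and 0.00436% ± 0.000750, 0.00471% ± 0.00209 and 0.00319% ± 0.000649 from the lowest to the highest dose (SD, n = 3). The 7-d controls had 0.00303% ± 0.000324, and the treated groups 0.00509% ± 0.00120, 0.00303% ± 0.0000254 and 0.00381% ± 0.00118 by rising dose. Apart from the 3-d controls, which hold the library of low depth, the low dose was highest or close to it. At 14-d the share was 0.00308% ± 0.000152 in the controls against 0.00543% ± 0.000643, 0.00363% ± 0.000333 and 0.00318% ± 0.000448 by rising dose. The corresponding values at 28-d were 0.00245% ± 0.000339, 0.00349% ± 0.00123, 0.00299% ± 0.000235 and 0.00313% ± 0.000194. At 7-d the low-dose libraries had 325, 657 and 360 reads, or 0.00413%, 0.00643% and 0.00470% of all reads, against 0.00299%, 0.00273% and 0.00337% in the controls (log2 fold change 0.86, SE 0.169, adjusted p = 0.00422, 1.82-fold). At 14-d they had 403, 567 and 574 reads, or 0.00469%, 0.00584% and 0.00576%, against 0.00322%, 0.00310% and 0.00292% (log2 fold change 0.96, SE 0.172, adjusted p = 0.00161, 1.95-fold). On both days every low-dose rat was above every control, and both folds stayed above 1.5 under all 3 other scalings. At 3-d the sign at all 3 doses depended on control replicate 1, in which 43 reads made up 0.0147%: the log2 fold changes were -0.25, -0.37 and -0.81 by rising dose with all libraries and 0.67, 0.56 and 0.12 without control replicate 1. Of these only the low dose without that library was a DEM (adjusted p = 0.0434). The level was lower at middle than at low dose, with log2 differences of -0.96 (SE 0.335, adjusted p = 0.0290) at 7-d and -0.89 (SE 0.333, adjusted p = 0.0484) at 14-d, and at high than at low dose, with -1.13 (SE 0.337, adjusted p = 0.0173) at 14-d. None of the 3 was called with library size alone, that of middle dose at 14-d was lost in 34 of 48 fits that left out 1 library, and the others in 5 (7-d) and 2 (14-d, high dose). With all 12 controls as the reference, the rise at 14-d was called (log2 fold change 0.88) and that at 7-d was not (0.61).

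**Figure D3:**
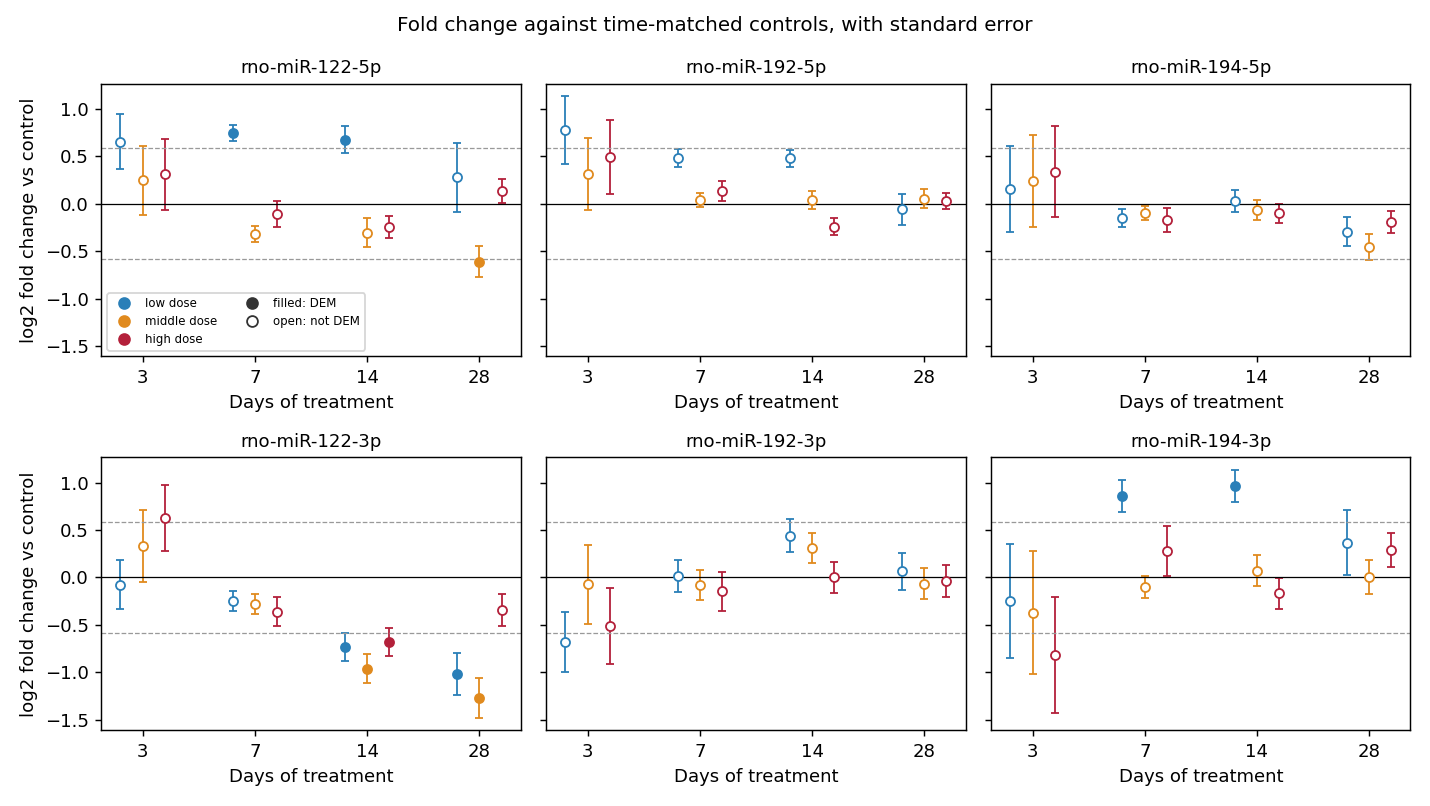
log2 fold change against time-matched controls with its standard error for the 6 miRNAs, by days of treatment and dose, from fits of 3 treated and 3 control libraries; filled points are DEMs and dashed lines mark a fold of 1.5. Filled points lie above 0 only at low dose on 7-d and 14-d (rno-miR-122-5p and rno-miR-194-3p), and the 5 filled points of rno-miR-122-3p lie below 0 at 14-d and 28-d.

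The size of an effect at one day was also compared with that at another within each dose. The effect on rno-miR-122-3p was lower at 28-d than at 3-d, with log2 differences of -0.94 (SE 0.247, adjusted p = 0.0294, background 5.32%) at low dose, -1.60 (SE 0.248, adjusted p = 4.99e-05, background 4.98%) at middle dose and -0.97 (SE 0.247, adjusted p = 0.0162, background 8.64%) at high dose. At high dose it was also lower at 7-d than at 3-d, with -0.98 (SE 0.247, adjusted p = 0.0395, background 6.64%). The controls of rno-miR-122-3p rose between 3-d and 28-d, as given above, while between 3-d and 7-d their log2 difference was 0.16 (SE 0.175, adjusted p = 0.672). Without 3-d control replicate 1 the values were -0.81 (adjusted p = 0.104), -1.47 (adjusted p = 2.31e-04), -0.84 (adjusted p = 0.0398) and -0.85 (adjusted p = 0.124), so that the middle- and high-dose differences between 28-d and 3-d kept their call. The low-dose effect on rno-miR-192-5p was lower at 28-d than at 3-d, with -0.83 (SE 0.238, adjusted p = 0.0411), and -0.54 (adjusted p = 0.104) without that library. Among the controls rno-miR-192-5p was higher at 14-d and 28-d than at 3-d by 0.57 (SE 0.169, adjusted p = 0.0133) and 0.65 (SE 0.169, adjusted p = 0.00340), and without that library by 0.28 (adjusted p = 0.286) and 0.36 (adjusted p = 0.0459). rno-miR-194-5p and rno-miR-194-3p differed between the 28-d and 3-d controls by 0.66 (SE 0.202, adjusted p = 0.00979) and -0.88 (SE 0.360, adjusted p = 0.0489), and by 0.29 (adjusted p = 0.0833) and -0.11 (adjusted p = 0.870) without it.

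Ratios of 2 miRNAs within a library do not depend on how libraries are scaled to each other, and of the 3 ratios tested the lowest p was that of the 2 arms of miR-122, shown above as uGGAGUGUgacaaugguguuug and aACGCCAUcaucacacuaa. At 3-d the ratio of rno-miR-122-5p to rno-miR-122-3p reads was 32.3, 45.3 and 43.03 in the 3 low-dose rats and 20.5, 27.7 and 22.9 in the controls. At 7-d it was 50.6, 39.98 and 51.3 against 22.3, 25.7 and 22.9, and at 14-d 42.9, 37.03 and 45.5 against 16.7, 15.5 and 15.4. At 28-d it was 23.9, 51.3 and 24.7 against 20.7, 11.1 and 12.2. At each of the 4 times all low-dose rats were above all controls, and the within-time log2 differences were 0.76, 1.00, 1.39 and 1.15. At 28-d replicate 29, the rat with the high rno-miR-122-5p share, again had the value of the earlier low-dose rats. Over the 12 low-dose and 12 control libraries the log2 ratio was 5.30 ± 0.382 against 4.23 ± 0.419 (SD), a 2.10-fold difference (log2 difference 1.07, permutation test, 2-sided, p = 2e-05, the smallest that 100000 resamples can give; adjusted over the 9 ratio tests 0.00018). Without 3-d control replicate 1 the log2 difference was 1.08. The permutation tests of the ratios shuffled libraries over all days together. Their p therefore includes the spread between days and does not measure the difference within a day. Across days the ratio did not separate low dose from control. Low-dose replicates 28 and 30 (23.9 and 24.7) lay below control replicates 2 (27.7) and 5 (25.7). All libraries with the label numbers 40 to 48 were low dose, so for these dose and label number cannot be told apart.

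At middle and high dose the same ratio differed from the controls by a log2 difference of 0.30 (permutation test, p = 0.0296, adjusted 0.0533) and 0.21 (p = 0.153, adjusted 0.192). Neither passed. Within time points the middle-dose difference was -0.06, -0.04, 0.63 and 0.66, and the high-dose difference was -0.32, 0.25, 0.43 and 0.48, in order of time. The middle-dose ratio was 27.4, 23.6 and 22.9 at 14-d and 28.8, 20.4 and 18.9 at 28-d, and the control ratio itself was lower on these days than at 3-d and 7-d. Leaving out 1 of 5 libraries in turn (3-d control replicate 2, 7-d control replicates 5 and 6, 3-d middle-dose replicate 10 and 28-d middle-dose replicate 39) brought the adjusted p of the middle dose to 0.0307 to 0.0499.

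The guide arms of the miR-192 and miR-194 cluster also shifted against each other at low dose. At 3-d the ratio of rno-miR-192-5p to rno-miR-194-5p was 37.03, 38.6 and 40.01 at low dose and 33.6, 23.8 and 23.7 in the controls. At 7-d it was 42.4, 35.7 and 39.8 against 23.9, 25.6 and 26.3, and at 14-d 34.6, 39.8 and 39.1 against 30.8, 25.9 and 26.5. Up to 14-d all low-dose rats were above all controls. At 28-d the values were 25.1, 37.3 and 25.3 against 26.7, 24.8 and 23.1, and replicate 29 was again the high one. Over 12 against 12 libraries the log2 difference was 0.46, or 1.37-fold (permutation test, 2-sided, p = 0.0002, adjusted 0.0009), and 0.49 without 3-d control replicate 1. At middle dose the log2 difference was 0.19 (permutation test, p = 0.0195, adjusted 0.0438), with within-time values of 0.00, 0.14, 0.10 and 0.51. The largest of these was at 28-d, where the ratio was 38.3, 33.1 and 34.9. The call was lost in 11 of the fits that left out 1 library (adjusted p up to 0.0812, without middle-dose replicate 37 of 28-d), and held without 3-d control replicate 1 (0.22, adjusted p = 0.0113). At high dose the log2 difference was 0.11 (permutation test, p = 0.124, adjusted 0.185), 0.15 without 3-d control replicate 1 (adjusted p = 0.0508) and 0.15 without high-dose replicate 7 of 14-d (adjusted p = 0.035).

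The ratio of the arms of miR-192 gave a call that rested on single libraries. At low dose the log2 difference of rno-miR-192-5p to rno-miR-192-3p was 0.47 (permutation test, p = 0.0108, adjusted 0.0324), with within-time values of 1.54, 0.44, 0.03 and -0.15. Without 3-d control replicate 1, whose ratio was 828, it was 0.28 with an adjusted p of 0.0508, and without any 1 of 5 other libraries the adjusted p was 0.0506 to 0.0544. At middle and high dose the log2 differences were 0.11 (adjusted p = 0.745) and 0.29 (adjusted p = 0.192).

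**Figure D4:**
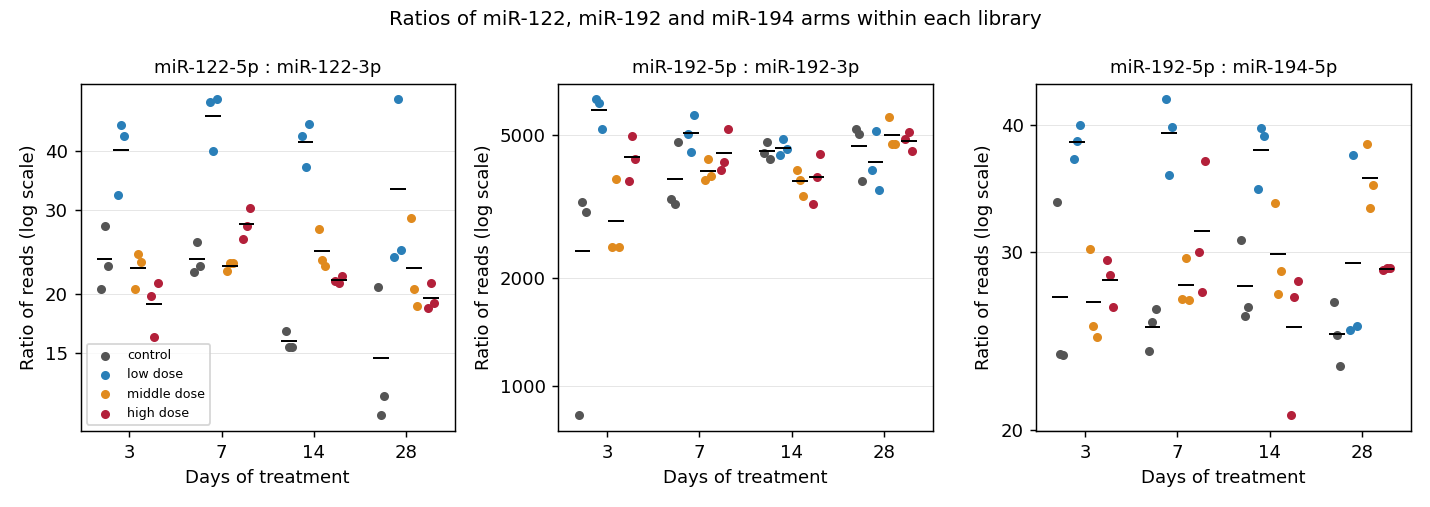
Ratios of reads within each of the 48 libraries on log axes, by days of treatment and dose: rno-miR-122-5p to rno-miR-122-3p, rno-miR-192-5p to rno-miR-192-3p and rno-miR-192-5p to rno-miR-194-5p; points are single rats and black bars are group means. In the left panel all 12 low-dose points lie above the controls of the same day, with 2 of the 3 points at 28-d near 24; in the middle panel the control point at 828 is the library of low depth.

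The members did not move as one over the 48 libraries. With the log2 of normalised RPM, Pearson's r between the 2 arms of miR-122 was 0.28, between rno-miR-192-5p and rno-miR-194-5p 0.62 (0.16 without the library of low depth), and between rno-miR-122-5p and rno-miR-192-5p 0.63. Scaled by library size alone, these were -0.06, 0.38 and 0.30. rno-miR-122-5p and rno-miR-194-3p had an r of 0.52, and 0.79 without that library. Outside the 6, the patterns most like that of rno-miR-122-5p were those of rno-let-7a-5p (r = 0.92), rno-miR-148a-5p (0.89) and rno-let-7d-5p (0.88). For rno-miR-122-3p they were rno-miR-26a-5p (0.76), rno-miR-22-3p (0.75) and rno-miR-10a-3p (0.73), so the nearest miRNAs of the 2 arms were not shared. For rno-miR-192-5p they were rno-miR-26b-5p (0.82), rno-miR-99a-3p (0.81) and rno-miR-190a-5p (0.76), and for rno-miR-192-3p rno-miR-339-5p (0.70), rno-miR-140-3p (0.66) and rno-miR-532-3p (0.64). Without the library of low depth these were 0.67, 0.77 and 0.63 for rno-miR-192-5p and 0.57, 0.51 and 0.45 for rno-miR-192-3p. For rno-miR-194-5p they were rno-miR-30e-5p (0.89), rno-miR-30b-5p (0.85) and rno-miR-101a-5p (0.83), which without the library of low depth were 0.60, 0.77 and 0.41. For rno-miR-194-3p they were rno-miR-193a-5p (0.82), rno-miR-181c-5p (0.81) and rno-let-7b-5p (0.80). All points share libraries, groups and one scaling factor per library, so these values only describe the 48 libraries.

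Other miRNAs abundant in liver, 9 in number, were set beside the 6: rno-miR-148a-3p, rno-miR-802-5p, rno-miR-101a-3p, rno-miR-101b-3p, rno-miR-22-3p, rno-miR-378a-3p, rno-miR-33-5p, rno-miR-26a-5p and rno-miR-30a-5p. At low dose on 7-d, where rno-miR-122-5p and rno-miR-194-3p were upregulated, 1 of the 9 was upregulated and none downregulated, beside 28.9% of all 301 called. The median log2 fold change of the 9 was 0.24, beside 0.02 over all 301. At low dose on 14-d 1 was upregulated and 1 downregulated, beside 32.6% of all 301 called (median 0.05, beside 0.11). Whatever their fold, rno-miR-101a-3p, rno-miR-101b-3p, rno-miR-30a-5p and rno-miR-378a-3p were higher on both days with adjusted p below 0.05 (0.37 to 0.61 on 7-d and 0.48 to 0.76 on 14-d), while rno-miR-26a-5p was lower on both (-0.44 and -0.63) and rno-miR-802-5p was lower on 7-d (-0.54). At middle dose on 28-d, where rno-miR-122-5p and rno-miR-122-3p were downregulated, none of the 9 was upregulated and 3 were downregulated. In that condition 32.9% of all 301 were called, 63 upregulated and 36 downregulated. The median of the 9 was -0.37, beside 0.02 over all 301. The 3 downregulated were rno-miR-22-3p (-0.70), rno-miR-26a-5p (-0.90) and rno-miR-802-5p (-1.08), the last with the lowest value of the list over all 12 conditions. In the same group of middle-dose rats at 28-d the leukocyte markers summed to 4811 to 6229 RPM against 3563 to 4491 RPM in the controls. With upper quartile normalization the leukocyte sums overlapped (4634 to 5392 against 4202 to 5125). Of the leukocyte markers 0 of 5 were called in either direction. Of the 5 stellate cell and smooth muscle markers 2 were upregulated and 0 downregulated (median 0.06, lowest -0.50). Their sums were 37343 to 39066 against 23284 to 37237 RPM, but overlapped with upper quartile normalization (32323 to 37095 against 26572 to 43917). Of the 5 bile duct and epithelium markers 1 was upregulated and 1 downregulated (-0.64 for rno-miR-429 to 1.09 for rno-miR-200c-3p). The part of these markers in the decrease was not tested. The red blood cell markers, 2 of 3 downregulated in that group, summed to 1656 to 3353 RPM against 2753 to 4574 RPM. Neither of the 2 endothelial markers was called in any of the 12 conditions.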

How the data were processed

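Small RNA reads of 18 to 25 bases were counted by the authors with miRDeep2 against miRBase release 21, and the submitters' processing notes name rn5 and FastQC. The deposited values are raw read counts per mature miRNA and precursor, not normalized, and a mature miRNA with several precursors was represented by the largest. RPM and shares were computed from the total miRNA reads of a library. edgeR 4.0.16 (R 4.3.3) was fitted to 3 treated and 3 time-matched control libraries, or to all 48, with upper quartile normalization, a filter of 5 RPM in at least 3 libraries, and Benjamini-Hochberg adjustment over 301 miRNAs; the scripts were tested on simulated data. DESeq2 1.42.0 served as an alternative. Ratios used a pseudocount of 1 read and permutation tests with 100000 resamples, in which libraries were shuffled without regard to day. The members, lists and tests were chosen with earlier results of these data known. The miRNAs named are the 6 members, rno-miR-215, the 3 most similar miRNAs per member, and lists of liver-abundant miRNAs and cell type markers. Counting error is small at this depth, except for the 3p arms of miR-192 and miR-194 in 3-d control replicate 1 (34 and 43 reads).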

Additional observations from a re-analysis of the deposited data

Results flagged for a closer look

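Treatment effects differed between 28-d or 7-d and 3-d in 5 cases, by a test of the difference itself in the fit of all 48 libraries (edgeR, adjusted p below 0.05). For rno-miR-122-3p the log2 differences were -0.94 (low dose), -1.60 (middle dose) and -0.97 (high dose) between 28-d and 3-d, and -0.98 at high dose between 7-d and 3-d. For rno-miR-192-5p at low dose between 28-d and 3-d it was -0.83. All 5 involve the 3-d controls and with them the library of 293331 reads. Without it, the middle- and high-dose differences of rno-miR-122-3p between 28-d and 3-d kept an adjusted p below 0.05 (edgeR quasi-likelihood test), and the other three had adjusted p of 0.104, 0.124 and 0.104. The cause was not tested.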

How the results depend on the processing

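No paired analysis was possible because the labels number the libraries 1 to 48 and no number is shared between groups. Of 72 fold changes, 62 to 71 stayed called or uncalled under each alternative, the fewest with all 12 controls pooled, and uncalled values near 0 could change sign. Without 3-d control replicate 1, 7 of the 18 fold changes at 3-d turned sign: rno-miR-194-3p and rno-miR-194-5p at all 3 doses and rno-miR-192-3p at middle dose. Of these only rno-miR-194-3p at low dose became a call (0.67; -0.61 to 0.67 over the left-out libraries). The number of conditions called (of 12) moved for rno-miR-122-3p to 3 on adjusted p, and for rno-miR-122-5p to 1 with library size alone. It moved to 1 for rno-miR-192-3p under TMM, DESeq2's size factors, library size alone or without the members, the DESeq2 Wald test and 1 fit of 48, for rno-miR-192-5p with 12 controls pooled or 1 fit of 48, for rno-miR-194-3p with 12 controls pooled, and for rno-miR-194-5p with no filter. Dose differences called became 0 for rno-miR-192-3p, rno-miR-192-5p and rno-miR-194-3p with no filter, 1 for rno-miR-192-5p and 0 for rno-miR-194-3p with library size alone, and 1 for rno-miR-194-3p with TMM. Time differences of the effect became 2 (TMM) and 1 (library size alone) for rno-miR-192-3p and 0 for rno-miR-192-5p under TMM, library size alone and no filter. Control time differences became 2 for rno-miR-192-3p under TMM and library size alone, 0 for rno-miR-194-3p with no filter and 0 for rno-miR-194-5p with library size alone. Within time points the log2 ratio of the arms of miR-122 at high dose was -0.32 (3-d). That of miR-192 was 1.54 (3-d) and -0.15 (28-d) at low dose and 1.09 (3-d) at high dose. That of rno-miR-192-5p to rno-miR-194-5p was -0.0022 (3-d) and 0.51 (28-d) at middle dose and 0.30 (7-d) and -0.14 (14-d) at high dose. Summing precursors raised the mean share of rno-miR-194-5p to 1.29%, but both miR-194 hairpins give the same 5p sequence, so a read may be counted under each. The causes were not tested.

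Leaving out 1 library at a time gave the following ranges. Conditions called were 4 to 5 for rno-miR-122-3p, 2 to 4 for rno-miR-122-5p, 2 to 3 for rno-miR-194-3p. Dose differences called were 2 to 4 for rno-miR-122-3p, 4 to 6 for rno-miR-122-5p, 0 to 2 for rno-miR-192-3p, 1 to 5 for rno-miR-192-5p, 1 to 3 for rno-miR-194-3p. Time differences of the effect were 2 to 4 for rno-miR-122-3p, 0 to 3 for rno-miR-122-5p, 0 to 1 for rno-miR-192-3p, 0 to 2 for rno-miR-192-5p, 0 to 1 for rno-miR-194-3p, 0 to 3 for rno-miR-194-5p. Control time differences were 3 to 4 for rno-miR-122-3p, 0 to 2 for rno-miR-192-3p, 1 to 3 for rno-miR-192-5p, 0 to 3 for rno-miR-194-3p, 0 to 3 for rno-miR-194-5p. The log2 ratio of the arms of miR-122 was 1.00 to 1.14 at low and 0.23 to 0.35 at middle dose, that of the arms of miR-192 0.28 to 0.52 at low dose, and that of rno-miR-192-5p to rno-miR-194-5p 0.43 to 0.50, 0.15 to 0.22 and 0.0778 to 0.15 at the 3 rising doses. The depth of 293331 reads in 3-d control replicate 1 limits the 3p arms of miR-192 and miR-194 most.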

Other observations

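The ratio of rno-miR-194-5p to rno-miR-194-3p reads, looked at after the values above were known, ran the other way from that of miR-122: it was 143, 101 and 137 in the low-dose rats at 7-d against 250, 279 and 225 in the controls, and 144, 111 and 111 against 207, 234 and 254 at 14-d. At low dose on 28-d it was 315, 131 and 268, with replicate 29 the lowest. This ratio was not tested, and its 5p reads can come from either miR-194 hairpin.

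Replicate 29, a low-dose rat at 28-d, had the highest share of rno-miR-122-5p of all 48 libraries (6.21%). Its rno-miR-194-3p share was 0.00486% against 0.00250% and 0.00310% in the other two rats of its group, and its rno-miR-194-5p share was 0.639% against 0.785% and 0.830%. Its place among the low-dose rats of earlier days was seen after the values were known, and no cause was tested.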
